A study of Mus musculus with 8 samples.

Results

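Described here are genes whose difference between libraries labelled as Prdm1-deleted and as control regulatory T (Treg) cells was found in tumor or in spleen alone, or ran in opposite directions in those tissues. The comparison used 8 of the 8 RNA-seq libraries of the series, chosen by their labels, with 2 libraries in each of 4 groups. The labels name the groups by genotype, Prdm1fl/flFoxP3YFP-Cre (KO) or FoxP3YFP-Cre (WT), and by tissue, spleen or tumor. Cre was driven by Foxp3 in both genotypes, so the WT mice carried the Cre as well, and in the KO it deletes floxed Prdm1 in cells that express Foxp3. All mice were C57BL/6, aged 5 to 10 weeks, and received B16.OVA melanoma cells under the skin on day 0. The antigen NP-OVA was given with the adjuvant CFA on day 0 and again with IFA on day 7. Cells positive for CD45, CD44, YFP, CD4 and CD3, called effector Treg (eTreg) cells by the study, were sorted once tumors measured up to 1.5 cm3. The labels do not say that replicates came from separate animals, so every p-value measures the spread between these samples, which may be technical in part.

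Prdm1 encodes Blimp1, a zinc finger repressor that marks effector Treg cells and takes part in their production of IL-10 and in their hold on lineage identity. Treg cells depend on Foxp3, on the IL-2 receptor and on inhibitory receptors such as CTLA-4, and their effector forms adapt to the tissue in which they reside. Genes that respond to antigen receptor signals, chemokine receptors and integrins differ between lymphoid tissue and tumor.

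Counts on genes totalled 43903859 and 35076472 in the KO spleen libraries and 30539772 and 28269666 in the WT spleen libraries, replicate 1 first here and throughout. In tumor they totalled 35318365 and 27834676 for KO and 29724913 and 30854014 for WT. Levels are in CPM, the count of a gene relative to its library's total, after scaling between libraries by edgeR's TMM method. A floor of 3 counts, which covers counting error only, corresponded to between 0.0644 and 0.112 CPM across the 8 libraries. Differences are log2 values of KO minus WT within a tissue, and the interaction is the tumor difference minus the spleen difference. A negative interaction thus means that KO stood lower against WT in tumor than it did in spleen. SE is the standard error of the log2 value it follows.

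Prdm1 itself, at chr10:44437177-44528501 of GRCm38, stood at 40.7 and 53.4 CPM in KO spleen, 54.1 and 21.02 CPM in WT spleen, 90.7 and 75.1 CPM in KO tumor and 108 and 192 CPM in WT tumor. The splenic groups overlapped, and in tumor both KO libraries were below both WT libraries without being near 0. Counts were summed over all exons of the gene, so a deleted part was not read apart from the rest. These levels thus cannot show or contradict the deletion that the labels name. KO and WT are therefore names of labels in what follows. The interaction of Prdm1 was -1.18 (SE 0.68, adjusted p = 0.765 in edgeR's quasi-likelihood test), and it ran from -2.03 without WT spleen replicate 1 to -0.66 without WT spleen replicate 2.

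Some libraries stood apart from the rest. KO tumor replicate 1 held a summed 16749 CPM over the 12 macrophage markers, against 1954 CPM in its replicate and 3628 and 621.7 CPM in WT tumor, with Lyz2 (lysozyme) the most abundant at 9554 CPM. KO tumor replicate 2 held 2222 CPM over the 2 CD8 T cell markers, Cd8a and Cd8b1, against 406.0 CPM in replicate 1 and 148.0 and 48.3 CPM in WT tumor. WT spleen replicate 2 had 22.5% of its counts on its 50 most abundant genes, where the other libraries had between 14.2% and 17.03%, and 2.49% on mitochondrial genes, where the others had between 0.696% and 1.73%. The same library summed to 1510.4 CPM over the 6 red cell markers, led by Hbb-bs at 592.5 CPM, while KO spleen held 301.2 and 88.5 CPM and WT spleen replicate 1 held 175.5 CPM. Its 8 NK cell markers summed to 667.1 CPM, with Fcer1g at 374.2 CPM and Tyrobp at 281.6 CPM, although Ncr1, Klra4 and Klra8 had no count in any spleen library. The macrophage markers summed to 2736 CPM in WT spleen replicate 2, against 576.3 CPM in replicate 1 and 395.0 and 1124 CPM in KO spleen. WT tumor replicate 1 held 3373 CPM over the red cell markers. The part of these libraries in the results was not tested beyond leaving each of them out.

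The list called CD4 T cell markers here has 12 genes, all 12 of them in the files. Those other than Cd4 are not specific to CD4 T cells, so the sum does not check the CD4 gate. The 12 genes summed to 11893 and 11358 CPM in WT spleen and 11288 and 10421 CPM in KO spleen. WT tumor held 10640.2 and 12866 CPM and KO tumor 4164 and 8449 CPM, so KO tumor was lower than every other group. Ptprc, which encodes CD45, was the most abundant of them at 1709.6 and 1899.8 CPM in WT tumor and 1321 and 1709 CPM in KO tumor. Cd4, which the sort required, is at chr6:124864692-124888221 and stood at 891 and 384 CPM in WT spleen, 1009 and 875 CPM in KO spleen, 807 and 1086 CPM in WT tumor and 148 and 66.2 CPM in KO tumor. Both KO tumor libraries lay far below all others, and the splenic groups overlapped. The interaction of Cd4 was -3.71 (SE 0.74), between -4.45 and -3.23 with each library left out. In bulk samples, fewer cells of a type and less RNA per cell cannot be told apart. The median interaction of the CD4 T cell list was -0.68, with 10 of 12 genes below 0 and a range of -1.80 to -0.36 with each library left out.

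The 7 melanoma markers, led by Tyrp1 in tumor, summed to 2093 and 1145 CPM in WT tumor and 3242 and 840.4 CPM in KO tumor, and to under 10 CPM in each spleen library, where Tyr and Slc45a2 had no count. The 7 neutrophil markers summed to 457 and 215 CPM in KO tumor and 98.4 and 11.98 CPM in WT tumor, with S100a8 most abundant in KO tumor, and to between 0.779 and 20.4 CPM in spleen. The NK cell markers, of which Klrb1c is also in the cytotoxicity list, summed to 2053 and 384 CPM in KO tumor and 464 and 100.2 CPM in WT tumor. In KO tumor replicate 1 most of that sum was Fcer1g at 1255 CPM and Tyrobp at 733.9 CPM, which myeloid cells express too, while Ncr1 was at 13.4 CPM. The 7 dendritic cell markers, led by Itgax in KO tumor, summed to 232 and 123 CPM in KO tumor and 77.98 and 62.8 CPM in WT tumor. For B cells, the 9 markers summed to between 19.6 and 94.3 CPM in every library, with Cd79b most abundant in all but KO tumor replicate 1. The 5 plasma cell markers summed to between 3.71 and 145.8 CPM, with Jchain most abundant in the library of the highest sum, KO tumor replicate 1. Fibroblast markers, 7 in number, summed to at most 16.9 CPM, in WT tumor replicate 2, where Col3a1 was most abundant, with Col3a1, Lum and Pdgfra at 0 in spleen. The 6 endothelial markers summed to at most 111.3 CPM, nearly all of it Pecam1, which T cells also express, and Emcn and Tie1 were at 0 in spleen.

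Median interactions of these lists were 4.64 for CD8 T cells, 3.77 for NK cells, 2.33 for B cells, 0.77 for plasma cells, 2.96 for macrophages and 1.08 for dendritic cells. They were 3.17 for neutrophils, 2.05 for melanoma cells, -2.73 for fibroblasts, 0.04 for endothelial cells and 1.02 for red cells, beside 0.07 over all genes tested. Where a gene had a group at 0, with that group set to the floor the medians became 4.22 for NK cells, 1.26 for B cells, 3.12 for neutrophils, 0.93 for melanoma cells and -2.73 for fibroblasts. With each library left out, the medians ran from 0.81 to 4.55 for macrophages, 2.95 to 5.99 for CD8 T cells, 2.30 to 5.74 for NK cells, 0.04 to 3.77 for B cells, 0.42 to 2.82 for dendritic cells, 0.74 to 2.79 for melanoma cells and -4.95 to -1.62 for fibroblasts. They ran from -3.93 to 6.38 for neutrophils, -1.30 to 5.43 for red cells, -0.78 to 1.54 for plasma cells and -1.07 to 1.32 for endothelial cells, so the sign of these 4 changed with the library left out. The part of these cells in any gene's result was not tested.

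**Figure D1:**
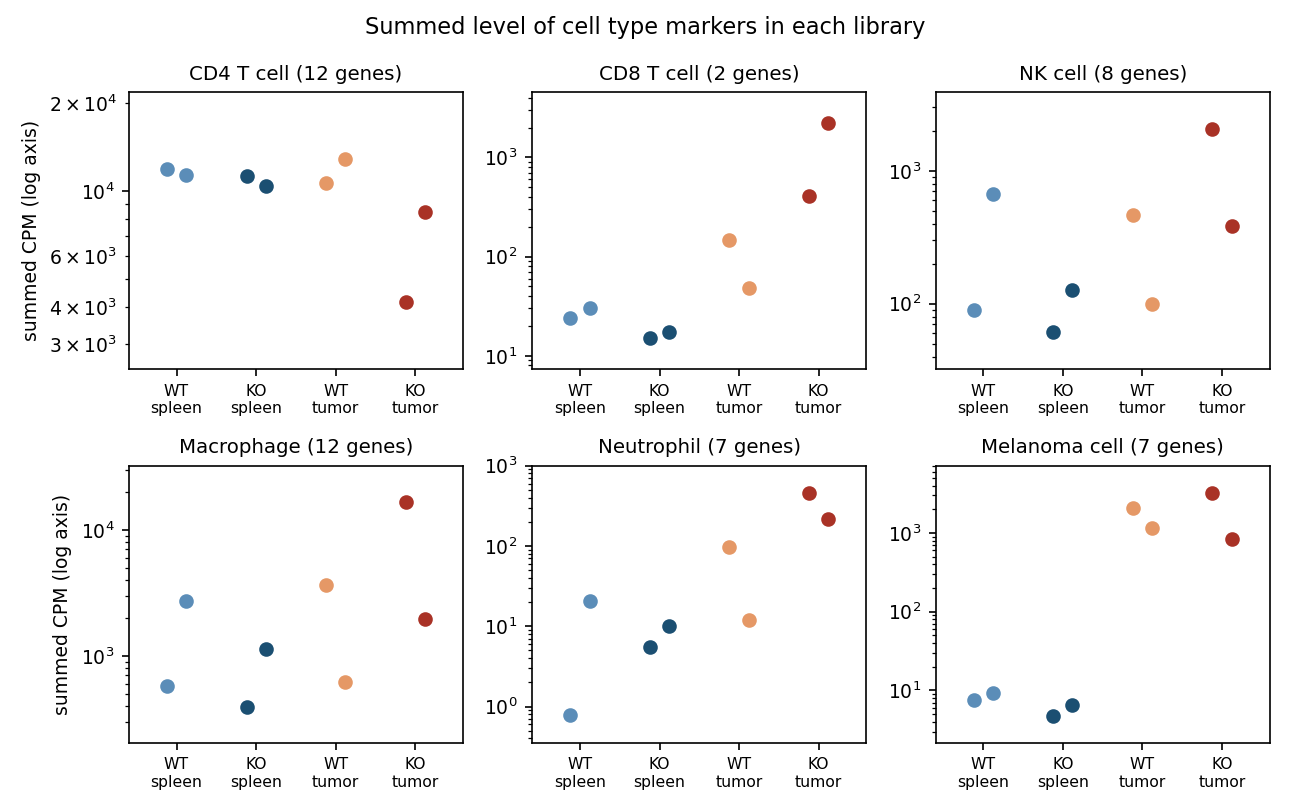
Summed CPM of marker lists (log axis) in each of the 8 libraries. KO tumor replicate 1 is highest for macrophage markers, KO tumor replicate 2 for CD8 T cell markers, and the CD4 T cell sum is lowest in the KO tumor libraries.

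The question of whether the genotype difference depended on tissue was put to 17870 of 49212 genes, those kept by edgeR's filter on low counts. A gene passed if its absolute interaction was over 1 and its p, adjusted by Benjamini and Hochberg, under 0.05. By edgeR's quasi-likelihood test 0 genes did so (0% of those tested), and the smallest adjusted p was 0.164. Without adjustment, 1399 genes (7.83%) had a p under 0.05, 908 with an interaction above 0 (5.08%) and 491 below 0 (2.75%), and of these 1395 exceeded an absolute value of 1. The interaction passed in DESeq2's Wald test for 309 of 16025 genes (1.93%), 211 above 0 (1.32%) and 98 below 0 (0.612%). Without the filter on low counts edgeR's test passed 752. It passed 0 with each library left out in turn. Single genes are thus described below by their levels, and no interaction named here passed the adjusted test in edgeR with the filter on low counts, while 45 of the 61 genes that the rules given with the processing select passed without it.

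Within tumor, edgeR's test on the same 8 libraries passed 135 genes (0.755%), 86 higher in KO (0.481%) and 49 lower (0.274%), and within spleen it passed 0 (0%). DESeq2's Wald test passed 911 in tumor and 45 in spleen. The tumor count was 12 without KO tumor replicate 1, 3 without KO spleen replicate 1, 3 without KO spleen replicate 2, 3 without WT tumor replicate 1 and 2 without WT tumor replicate 2. It was 110, 149 and 151 without KO tumor replicate 2, WT spleen replicate 1 and WT spleen replicate 2, and 0 when the tumor libraries were fitted alone. With the replicate number as a block it was 73, and with an offset for GC content, chosen after seeing the data and taken up below, it was 7. The block ended the tumor calls of Dusp5, Jund, Itgae, Il2ra, Icos, Cd4 and Gnas, all described here. Their adjusted p in edgeR's test with the block was 0.05202 for Cd4, 0.05927 for Gnas and 0.05322 for the others. In the text that follows, rose and fell are used only for genes among these 135, and higher and lower describe levels.

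All 4 libraries of a tissue separated by genotype, with no overlap, for 3198 genes with KO higher in tumor (17.9%) and 3400 with KO lower (19%), and for 2840 (15.9%) and 2772 (15.5%) in spleen. Across genes, the tumor and spleen differences had a Pearson correlation of 0.06, a description only since genes are not independent replicates. KO and WT stood in opposite order in the tissues, without overlap in either, for 956 genes (5.35%). Of the 17870 genes, 163 were opposite, meaning separated in both tissues, in opposite directions, with an absolute difference over 1 in each. The rule sets no floor on the level, and 41 of the 163 had a mean of at least 1 CPM in both tissues, a count added after seeing the data, while 56 genes were opposite in a fit of genes with a mean of at least 50 counts. In 114 of them KO was higher in tumor (0.638%) and in 49 lower (0.274%). In a same-direction class, defined by the same thresholds, 157 genes were higher (0.879%) and 134 lower (0.75%) in KO.

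A further 1089 genes differed in tumor with little difference in spleen, that is, they were separated in tumor by over 1, differed by under 0.5 in spleen and had a splenic mean of at least 1 CPM. Of these, 604 were higher in KO tumor (3.38%) and 485 lower (2.71%), and 66 and 27 of them passed the tumor test. The mirror class, with a difference in spleen and little in tumor, held 212 genes, 77 higher (0.431%) and 135 lower (0.755%) in KO spleen. Spleen itself had no floor in that class, and 57 of the higher and 111 of the lower genes had a splenic mean of at least 1 CPM. Where the other tissue had a mean under 1 CPM no difference could be read there, and such genes were counted apart. They numbered 542 higher (3.03%) and 323 lower (1.81%) in KO tumor, and 210 higher (1.18%) and 480 lower (2.69%) in KO spleen.

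The class sizes moved with single libraries. For the opposite class, 163 became 300 without KO spleen replicate 1, 414 without KO spleen replicate 2, 759 without WT spleen replicate 1, 334 without KO tumor replicate 1, 436 without KO tumor replicate 2, 442 without WT tumor replicate 1 and 321 without WT tumor replicate 2. Tumor with little in spleen, 1089 genes, became 701 without WT spleen replicate 1, 1910 without KO tumor replicate 2 and 1860 without WT tumor replicate 1. Spleen with little in tumor, 212 genes, became 397 without KO spleen replicate 1, 423 without KO spleen replicate 2 and 2653 without WT spleen replicate 1. A group left with 1 library separates more easily, so a larger class is part of leaving 1 out. The rules given with the processing select 61 genes, called the named genes here, many of them for a small interaction p, and 59 kept the sign of their interaction with each library left out, which is partly due to that choice. Other genes are mentioned as members of lists.

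**Figure D2:**
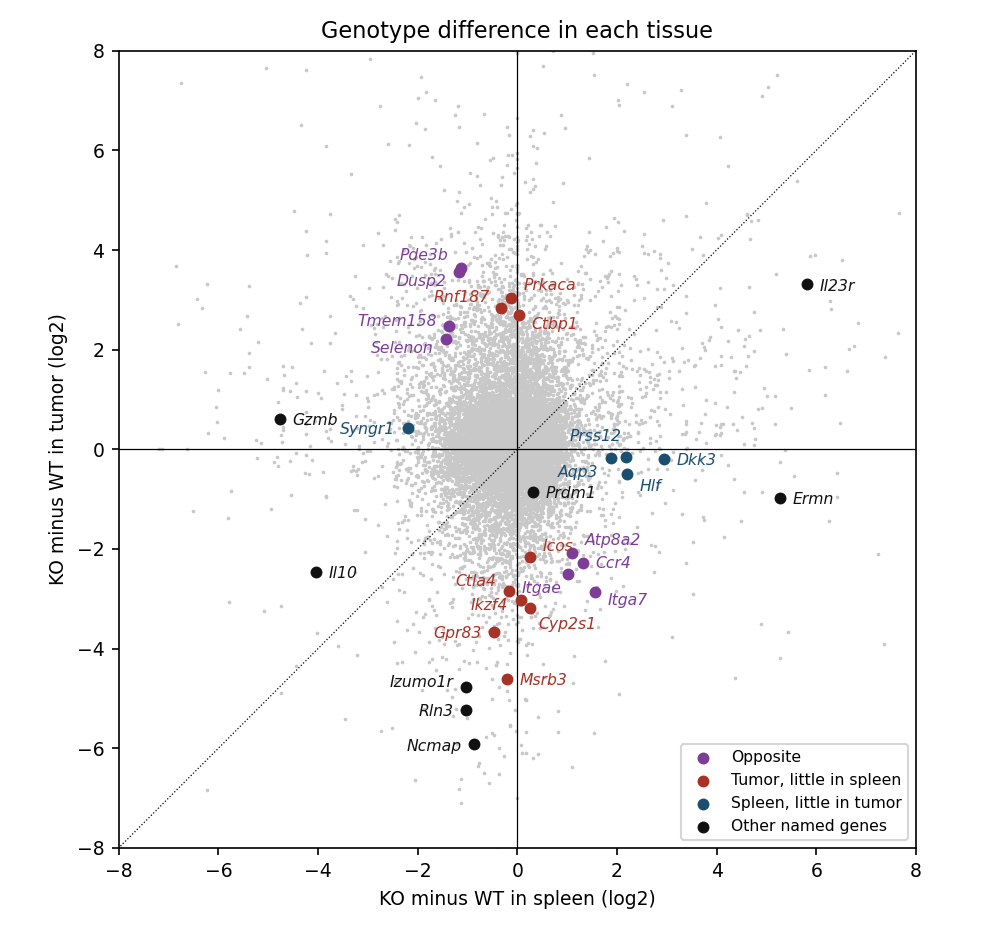
KO minus WT in spleen (horizontal axis, log2) against KO minus WT in tumor (vertical axis, log2) for 17870 genes, with 30 lying beyond the axes. Named genes are colored by class: opposite genes lie in the upper left and lower right, and tumor genes with little splenic difference lie near the vertical axis.

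Dusp2 had the smallest interaction p of the opposite genes. It encodes a nuclear phosphatase that switches off ERK and related kinases, and it lies at chr2:127336159-127338376. Its level was 59.8 and 129 CPM in WT spleen, 47.97 and 36.4 CPM in KO spleen, 15.8 and 16.2 CPM in WT tumor and 179 and 199 CPM in KO tumor. Both KO tumor libraries were the highest of all 8, both WT tumor libraries the lowest, and in spleen the order was reversed without overlap. Dusp2 rose in KO tumor by 3.56 (SE 0.43, Benjamini-Hochberg adjusted p = 0.0328 in edgeR's quasi-likelihood test), and its splenic difference was -1.16 (SE 0.40). The interaction was 4.72 (95% interval 3.39 to 6.05) and ran from 4.06 to 5.17 with each library left out. The tumor call of Dusp2 was made in 3 of 8 fits with 1 library left out and was lost without either KO spleen library, KO tumor replicate 1 or either WT tumor library.

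Dusp5, a phosphatase specific for ERK in the nucleus, was likewise higher in KO tumor and lower in KO spleen, with a smaller splenic difference. It stood at 61.5 and 63.02 CPM in WT spleen, 36.7 and 29.7 CPM in KO spleen, 116 and 96.4 CPM in WT tumor and 412 and 428 CPM in KO tumor. No groups overlapped within a tissue, and replicates were close in every group. Dusp5 rose in KO tumor by 1.99 (SE 0.31, adjusted p = 0.0354 in edgeR's test with Benjamini-Hochberg adjustment), and its interaction was 2.89 (SE 0.42), between 2.74 and 3.06 with each library left out. Its tumor call was made in 2 of 8 such fits, those without a WT spleen library. Jund, an AP-1 subunit, was the third gene of the receptor-induced list to rise in KO tumor, at 36.4 and 31.4 CPM in WT tumor and 155 and 166 CPM in KO tumor, while KO spleen at 104 and 79.1 CPM lay below WT spleen at 119.6 and 182 CPM. Dusp10, which acts on p38 and JNK, went the other way, at 121 and 132 CPM in WT tumor and 59.6 and 68.8 CPM in KO tumor, with overlap in spleen at 34.97 and 26.9 CPM and 37.7 and 28.1 CPM for WT and KO.

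Over the 32 genes of receptor-induced feedback and immediate early genes, all tested, the median interaction was 0.51, against 0.07 over all genes. It ran from -0.22 to 0.84 with each library left out, so the sign of the median was not fixed. At an unadjusted p under 0.05 in edgeR's test, 6 were above 0 and 2 below (5.08% and 2.75% of all genes). In spleen 15 of the 32 were lower in both KO libraries and 0 higher, while in tumor 9 were higher and 8 lower without overlap. Over all genes 15.5% were lower in spleen without overlap, and 17.9% higher and 19% lower in tumor. For some immediate early genes the KO tumor libraries differed from each other more than the genotypes did. Fos was at 1124 and 205 CPM in KO tumor and 405 and 596 CPM in WT tumor, and Egr1 at 414 and 154 CPM and 277 and 123 CPM. The 2 KO tumor values of each lay on both sides of the WT mean.

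Pde3b encodes a phosphodiesterase that breaks down cAMP, and it lies at chr7:114415281-114539251. It stood at 2.99 and 3.78 CPM in WT spleen, 1.01 and 2.08 CPM in KO spleen, 4.78 and 4.12 CPM in WT tumor and 42.6 and 68.4 CPM in KO tumor. KO tumor was the one group with values above 5 CPM, and KO spleen was the lowest. The rise in KO tumor was 3.64 (SE 0.50, adjusted p = 0.0348 in edgeR's test with Benjamini-Hochberg adjustment), with a splenic difference of -1.13 (SE 0.46) and an interaction of 4.77 (SE 0.67, 4.36 to 5.38 with each library left out). The tumor call of Pde3b was made in 2 of 8 fits with 1 library left out, those without a WT spleen library.

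Prkaca, the catalytic subunit of protein kinase A, is activated by the cAMP that Pde3b degrades. It was at 21.9 and 25.8 CPM in WT spleen, 23.5 and 20.2 CPM in KO spleen, 4.99 and 4.25 CPM in WT tumor and 41.5 and 34.2 CPM in KO tumor. WT tumor was low, and the other groups were several times higher. Its rise in tumor was 3.03 (SE 0.36, adjusted p = 0.0328 in edgeR's test with Benjamini-Hochberg adjustment) against -0.13 in spleen, where the groups overlapped, and the interaction was 3.16 (SE 0.48). Gnas, which encodes the G protein subunit that stimulates cAMP synthesis, was the third member to rise, at 75.7 and 57.9 CPM in WT tumor and 226 and 281 CPM in KO tumor, with 142 and 144 CPM and 136 and 127 CPM in WT and KO spleen. Crem, a transcription factor induced by cAMP, was lower in KO tumor, at 357 and 385 CPM against 953 and 811 CPM, and overlapped in spleen at 65.1 and 50.6 CPM and 66.8 and 57.3 CPM for KO and WT. Of the 23 cAMP signalling genes, 6 were above 0 and 1 below (5.08% and 2.75% of all genes) at an unadjusted p under 0.05 in edgeR's test, and the median of -0.10 was on the other side of 0 from most of those. Leaving out single libraries moved the median from -0.50 to 0.32. Without overlap, 9 were higher and 6 lower in KO tumor (17.9% and 19% of all genes), and 2 higher and 5 lower in KO spleen (15.9% and 15.5% of all genes). The tumor call of Prkaca was made in 3 of 8 fits with 1 library left out and was lost without either KO spleen library, KO tumor replicate 1 or either WT tumor library.

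Tmem158 and Selenon were opposite in the same sense without passing in tumor. Tmem158, a membrane protein induced by Ras signals, was at 7.43 and 12.1 CPM in WT spleen, 3.72 and 3.85 CPM in KO spleen, 0.647 and 0.5400 CPM in WT tumor and 3.302 and 3.29 CPM in KO tumor. KO therefore stood at a similar level in both tissues, while WT was high in spleen and low in tumor. Its interaction was 3.83 (SE 0.69), 3.44 to 4.13 with each library left out. Selenon, a selenoprotein of the endoplasmic reticulum, was at 1.86 and 2.498 CPM in WT spleen, 0.773 and 0.837 CPM in KO spleen, 7.62 and 3.61 CPM in WT tumor and 32.2 and 20.2 CPM in KO tumor. KO tumor was highest and KO spleen lowest, with no overlap in either tissue, and the interaction was 3.65 (SE 0.72). Cd8a met the same rule and is taken up with the cytotoxic genes.

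The opposite genes with KO lower in tumor and higher in spleen included an integrin and a chemokine receptor of tissue homing. Itgae encodes CD103, the integrin chain that binds E-cadherin, and lies at chr11:73090583-73147446, where Gsg2 overlaps it on the other strand. It stood at 214 and 109 CPM in WT spleen, 313 and 342 CPM in KO spleen, 116 and 135 CPM in WT tumor and 27.5 and 16.5 CPM in KO tumor. Both KO spleen libraries were the highest and both KO tumor libraries the lowest of all 8. Itgae fell in KO tumor with a log2 difference of -2.51 (SE 0.43, adjusted p = 0.0481 in edgeR's test with Benjamini-Hochberg adjustment), and its splenic difference was 1.02 (SE 0.41). The interaction was -3.53 (SE 0.59), from -4.11 without WT spleen replicate 1 to -3.13 without WT spleen replicate 2, and the tumor call was made in 2 of 8 fits with 1 library left out, those without a WT spleen library. Whether counting used the strand is not stated, so reads of overlapping genes may be shared.

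Ccr4, the receptor for CCL17 and CCL22, is at chr9:114490316-114504916. It was at 159 and 95.8 CPM in WT spleen, 327 and 309 CPM in KO spleen, 79.3 and 134 CPM in WT tumor and 29.3 and 14.3 CPM in KO tumor. KO spleen was highest and KO tumor lowest, as for Itgae, with an interaction of -3.61 (SE 0.65, -4.23 to -3.18 with each library left out) and a tumor difference of -2.29 that did not pass (adjusted p = 0.07501 in edgeR's test with Benjamini-Hochberg adjustment). Itga7, a laminin-binding integrin chain, was at 6.89 and 5.78 CPM in WT spleen, 20.1 and 17.4 CPM in KO spleen, 5.61 and 12.3 CPM in WT tumor and 1.43 and 1.01 CPM in KO tumor. KO spleen exceeded every other library, and KO tumor was under 2 CPM, for an interaction of -4.44 (SE 0.71). Atp8a2, a phospholipid flippase, was low throughout at 2.49 and 1.82 CPM in WT spleen, 4.15 and 5.096 CPM in KO spleen, 3.77 and 2.700 CPM in WT tumor and 0.7303 and 0.786 CPM in KO tumor. Its groups did not overlap within either tissue, and the interaction was -3.19 (SE 0.73).

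**Figure D3:**
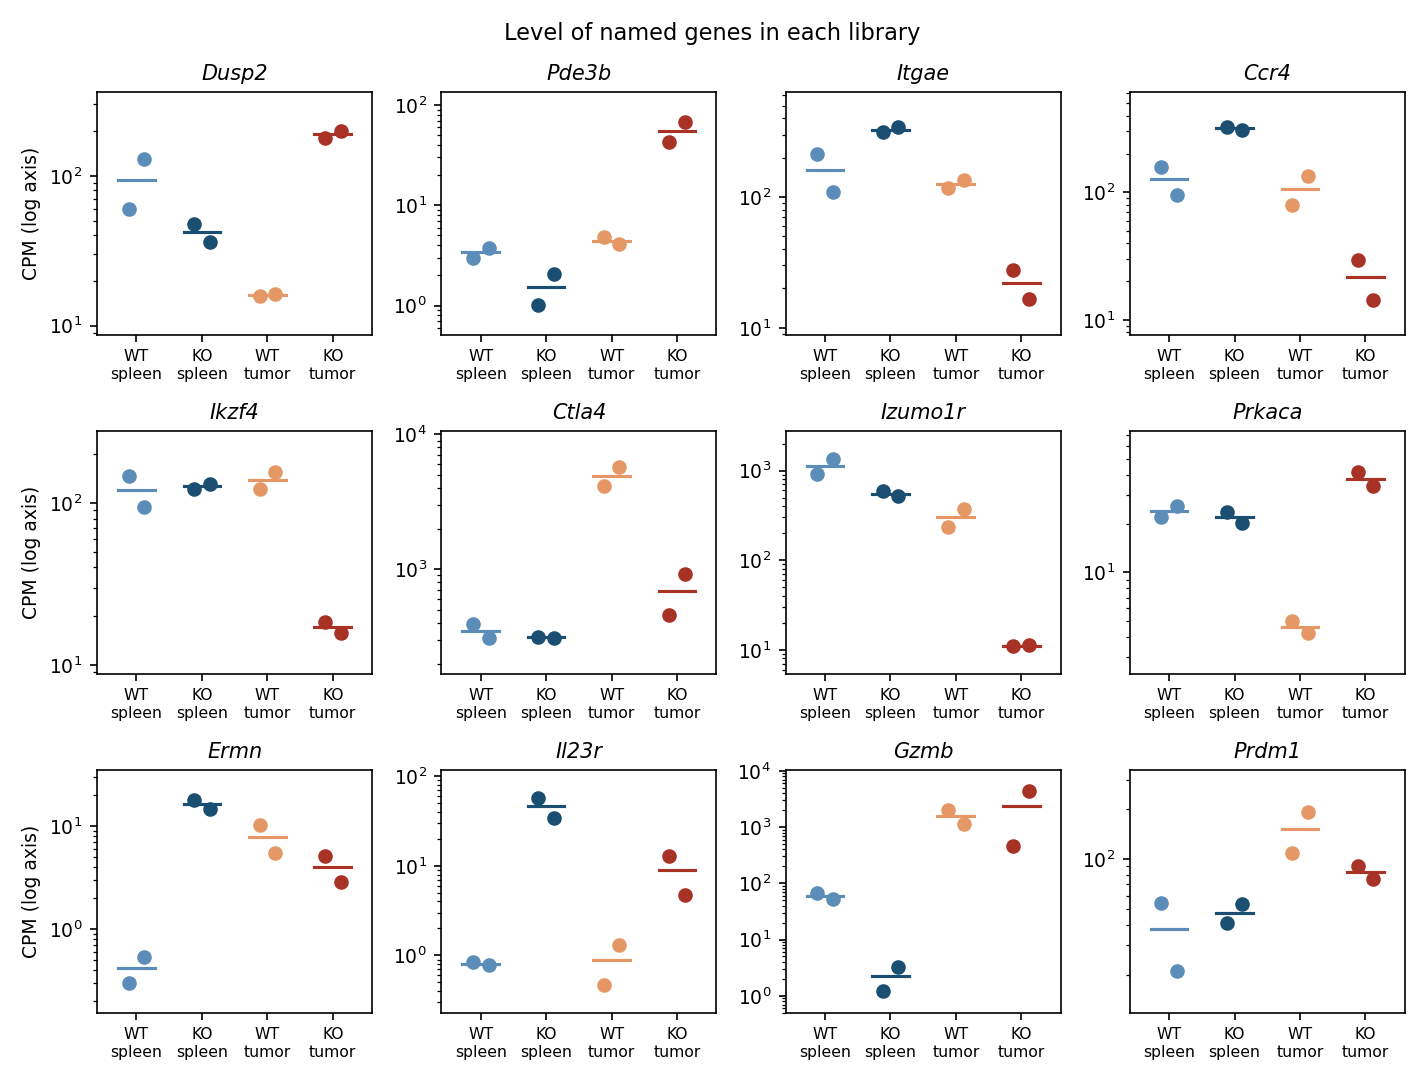
CPM (log axis) of 12 genes in each library, with points for libraries and bars for group means. Dusp2 and Pde3b are highest in KO tumor and lower in KO than WT spleen, Itgae and Ccr4 show the reverse, Ikzf4 and Izumo1r are lowest in KO tumor, Ctla4 is highest in WT tumor, and Ermn and Il23r are highest in KO spleen.

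Of the 19 chemokine and egress receptors, 3 were above 0 and 6 below (5.08% and 2.75% of all genes) at an unadjusted p under 0.05 in edgeR's test, with a median interaction of -0.53, between -0.87 and -0.10 with each library left out. Without overlap, 1 were higher and 6 lower in KO tumor (17.9% and 19% of all genes), and 9 higher and 7 lower in KO spleen (15.9% and 15.5% of all genes). Ccr8, a receptor abundant on Treg cells of tumors, was at 155 and 112 CPM in WT spleen, 94.5 and 90.6 CPM in KO spleen, 853 and 950.3 CPM in WT tumor and 83.2 and 55.6 CPM in KO tumor. WT tumor exceeded every other group several times over, and KO tumor fell to a level at or below that of spleen. The fall of Ccr8 was -3.70 (SE 0.38, adjusted p = 0.0203 in edgeR's test with Benjamini-Hochberg adjustment), its splenic difference -0.53 and its interaction -3.17 (SE 0.49). It passed in tumor in 4 of 8 fits with 1 library left out and was lost without either KO spleen or either WT tumor library. Cxcr3, a receptor of type 1 inflammation, lay on the same side at 393 and 641 CPM in WT tumor and 99.9 and 199 CPM in KO tumor, with 356 and 328 CPM and 468 and 488 CPM in WT and KO spleen. S1pr1, which guides exit from lymphoid tissue, was higher in KO spleen (577 and 678 CPM) than in WT spleen (416 and 346 CPM) and overlapped in tumor at 53.5 and 68.9 CPM and 67.1 and 130.0 CPM for KO and WT.

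Ccr1, a receptor for inflammatory chemokines that is found on myeloid cells as well as T cells, was at 3.29 and 1.53 CPM in WT spleen, 0.516 and 0.735 CPM in KO spleen, 131 and 47.5 CPM in WT tumor and 573 and 91.7 CPM in KO tumor. Its highest value was in KO tumor replicate 1, the library with the most macrophage marker counts, and without that library the interaction of 3.85 (SE 1.21) was 1.99.

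Among the genes that fell in tumor with little difference in spleen, the first were Ikzf4, Gpr83, Cyp2s1 and Msrb3. Ikzf4 encodes Eos, a zinc finger partner of Foxp3, at chr10:128630843-128645991. It stood at 147 and 94.3 CPM in WT spleen, 122 and 132 CPM in KO spleen, 122 and 155 CPM in WT tumor and 18.4 and 15.8 CPM in KO tumor. Only the KO tumor libraries were low, and KO spleen lay within the range of WT spleen. Ikzf4 fell with a log2 difference of -3.02 (SE 0.36, adjusted p = 0.0328 in edgeR's test with Benjamini-Hochberg adjustment) in tumor against 0.07 (SE 0.33) in spleen. The interaction was -3.09 (SE 0.48), -3.45 to -2.81 with each library left out. Tumor calls of Ikzf4 and Gpr83 were made in 3 of 8 such fits and those of Cyp2s1 and Msrb3 in 2 of 8, and all 4 were lost without either KO spleen library, KO tumor replicate 1 or either WT tumor library. Those of Cyp2s1 and Msrb3 were lost without KO tumor replicate 2 as well.

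Gpr83, a G protein-coupled receptor typical of Treg cells, is at chr9:14860210-14870789 and was already low in tumor. It stood at 102 and 87.96 CPM in WT spleen, 75.2 and 62.4 CPM in KO spleen, 3.41 and 5.299 CPM in WT tumor and 0.445 and 0.224 CPM in KO tumor. Both KO tumor libraries were under 0.5 CPM, and the fall was -3.67 (SE 0.45, adjusted p = 0.0331 in edgeR's test with Benjamini-Hochberg adjustment). Msrb3, which repairs oxidized methionine, was at 2.49 and 0.999 CPM in WT spleen, 1.35 and 1.67 CPM in KO spleen, 22.5 and 32.8 CPM in WT tumor and 1.37 and 0.898 CPM in KO tumor. Only WT tumor stood out, with KO tumor near the level of spleen, and the interaction was -4.40 (SE 0.79). Cyp2s1, a cytochrome P450 enzyme, was at 7.99 and 7.21 CPM in WT spleen, 10.01 and 8.09 CPM in KO spleen, 14.3 and 22.3 CPM in WT tumor and 1.68 and 2.36 CPM in KO tumor. WT tumor was above spleen and KO tumor below it, with an interaction of -3.43 (SE 0.61).

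The list of 25 genes of Treg identity and suppression, all tested, had a median interaction of -2.02 against 0.07 over all genes, with 21 below 0. At an unadjusted p under 0.05 in edgeR's test 0 were above 0 and 15 below (5.08% and 2.75% of all genes), and DESeq2's interaction test passed 0 and 11. In tumor 20 of the 25 were lower in both KO libraries without overlap, and 11 of these passed the tumor test, all falling. Over all genes 19% were lower in tumor without overlap and 0.274% passed as lower. The list was chosen with earlier results of these data known, as all lists here were, so these shares are a description only. In spleen 12 of the 25 were lower and 2 higher in KO without overlap (15.5% and 15.9% of all genes). The same KO tumor libraries had lower CD4 T cell sums than WT tumor, and 1 of them had the most macrophage and the other the most CD8 T cell marker counts. The spleen median was -0.20 and the tumor median -2.62. With each library left out, the median interaction lay between -2.32 and -1.60. Most of the 135 tumor calls were lost in several fits with 1 library left out, as given above. How far those within the list rest on single libraries differed by gene, as given below for some of them.

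Ctla4, which encodes an inhibitory receptor for CD80 and CD86, is at chr1:60887000-60915832. It was at 389 and 311 CPM in WT spleen, 312 and 312 CPM in KO spleen, 4138 and 5721 CPM in WT tumor and 461 and 918 CPM in KO tumor. Splenic libraries were near one another, and the WT tumor level was the highest, with KO tumor between. Ctla4 fell with a tumor difference of -2.84 (SE 0.44, adjusted p = 0.0354 in edgeR's test with Benjamini-Hochberg adjustment), and its interaction was -2.67 (SE 0.58), -3.24 to -2.27 with each library left out. Il2ra, the alpha chain of the IL-2 receptor, was at 384 and 197 CPM in WT spleen, 261 and 245 CPM in KO spleen, 559.7 and 561 CPM in WT tumor and 65.2 and 102 CPM in KO tumor. KO tumor was below all spleen libraries, and WT tumor above them. Icos, a costimulatory receptor of the CD28 family, was at 427 and 404 CPM in WT spleen, 554 and 436 CPM in KO spleen, 1400.1 and 1652 CPM in WT tumor and 289 and 392 CPM in KO tumor. KO spleen lay slightly above WT spleen, with an interaction of -2.42 (SE 0.47) and a fall in tumor of -2.16 (adjusted p = 0.03703 in edgeR's test with Benjamini-Hochberg adjustment). The tumor calls of Il2ra and Icos were made in 2 of 8 fits with 1 library left out, and that of Ctla4 in 3 of 8. Each was lost without either KO spleen library, KO tumor replicate 1 or either WT tumor library, and those of Il2ra and Icos were lost without KO tumor replicate 2 as well.

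Lrrc32, which anchors latent TGF-beta on the Treg surface, was at 138 and 64.9 CPM in WT spleen, 98.2 and 105 CPM in KO spleen, 317 and 334 CPM in WT tumor and 35.5 and 8.87 CPM in KO tumor. It fell in tumor with a difference of -3.87 and showed 0.00 in spleen. Foxp3, the lineage factor, at chrX:7579676-7595243, was at 69.6 and 58.1 CPM in WT spleen, 43.1 and 56.4 CPM in KO spleen, 25.5 and 60.5 CPM in WT tumor and 10.2 and 2.99 CPM in KO tumor. Its interaction of -2.34 ran from -3.49 without KO tumor replicate 1 to -1.60 without WT tumor replicate 2, and its tumor difference of -2.70 did not pass (adjusted p = 0.106 in edgeR's test with Benjamini-Hochberg adjustment). Ikzf2, which encodes Helios, was lower in KO in both tissues, at 468 and 684 CPM in WT spleen and 279 and 334 CPM in KO spleen, then 296 and 517 CPM in WT tumor and 64.04 and 44.3 CPM in KO tumor. The tumor difference was larger by an interaction of -1.996 (SE 0.56). Among those with no tumor separation, Tgfb1 was at 129 and 133 CPM in WT tumor and 180.0 and 123 CPM in KO tumor, and Nrp1 at 223 and 234 CPM and 248 and 154 CPM.

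Of the cytokine genes in the list, Il10 was lower in KO in both tissues, at 14.3 and 14.02 CPM in WT spleen, 0.773 and 0.938 CPM in KO spleen, 101 and 106 CPM in WT tumor and 32.4 and 5.16 CPM in KO tumor. KO spleen was under 1 CPM, while KO tumor replicate 1 stood above all spleen libraries. The interaction of 1.59 (SE 0.97) changed sign to -0.29 without that library and was 2.38 without KO tumor replicate 2. Ebi3, the shared chain of IL-27 and IL-35, was lower in KO in both tissues too, at 77.4 and 90.99 CPM in WT spleen, 51.4 and 48.9 CPM in KO spleen, 77.2 and 110.2 CPM in WT tumor and 34.4 and 8.72 CPM in KO tumor. Its interaction was -1.37 (SE 0.78), from -2.69 without KO tumor replicate 1 to -0.68 without KO tumor replicate 2.

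Rln3, Ncmap and Izumo1r had the smallest interaction p among genes lower in KO in both tissues. Rln3 encodes relaxin-3, a peptide hormone, and lies at chr8:84042929-84045000. It stood at 90.4 and 126 CPM in WT spleen, 47.8 and 59.04 CPM in KO spleen, 71.7 and 53.3 CPM in WT tumor and 1.87 and 1.46 CPM in KO tumor. In spleen KO lay below WT without overlap, and in tumor both KO libraries were under 2 CPM. Rln3 fell in tumor with a difference of -5.22 (SE 0.40, adjusted p = 0.01103 in edgeR's test with Benjamini-Hochberg adjustment) against -1.02 in spleen, and the interaction was -4.20 (SE 0.50), -4.47 to -3.94 with each library left out. Its tumor call, like that of Ncmap, was made in 8 of 8 fits with 1 library left out.

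Ncmap, a membrane protein known from myelin, was at 40.00 and 40.7 CPM in WT spleen, 21.8 and 22.7 CPM in KO spleen, 27.3 and 57.6 CPM in WT tumor and 0.826 and 0.561 CPM in KO tumor. The KO tumor libraries were under 1 CPM, and the interaction was -5.06 (SE 0.63). Izumo1r encodes folate receptor 4, a marker of Treg and unresponsive CD4 T cells, at chr9:14885814-14903949. It was at 910.2 and 1357 CPM in WT spleen, 589 and 514 CPM in KO spleen, 232 and 376 CPM in WT tumor and 10.99 and 11.3 CPM in KO tumor. The 2 KO tumor libraries were alike and far below every other library. Izumo1r fell in tumor with a difference of -4.77 (SE 0.43, adjusted p = 0.0123 in edgeR's test with Benjamini-Hochberg adjustment), a call made in 7 of 8 fits and lost without WT tumor replicate 2, and its splenic difference was -1.04.

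Socs2 stood out in the list of 18 IL-2 and STAT5 genes, whose median interaction was -0.72, between -0.95 and -0.48 with each library left out, with 3 above 0 and 2 below (5.08% and 2.75% of all genes) at an unadjusted p under 0.05 in edgeR's test. Without overlap, 4 were higher and 10 lower in KO tumor (17.9% and 19% of all genes), and 2 higher and 3 lower in KO spleen (15.9% and 15.5% of all genes). A feedback inhibitor induced by STAT5, Socs2 was at 50.8 and 63.4 CPM in WT spleen, 49.8 and 43.4 CPM in KO spleen, 58.9 and 88.8 CPM in WT tumor and 11.7 and 11.1 CPM in KO tumor. It fell in tumor with a difference of -2.69 (SE 0.35, adjusted p = 0.0345 in edgeR's test with Benjamini-Hochberg adjustment) and was slightly lower in KO spleen, and the tumor call was made in 2 of 8 fits with 1 library left out, those without a WT spleen library. Mcl1, a survival factor of the Bcl2 family, was on the other side, at 221 and 281 CPM in WT spleen, 222 and 174 CPM in KO spleen, 88.6 and 97.5 CPM in WT tumor and 885 and 309 CPM in KO tumor. KO tumor replicate 1 held the highest value, and without it the interaction of 3.02 (SE 0.68) was 2.06. Bcl2 was higher in KO tumor as well, at 80.1 and 134 CPM against 16.7 and 36.1 CPM in WT tumor, and overlapped in spleen at 108 and 148 CPM and 122 and 140.1 CPM for KO and WT.

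The genes that rose in tumor with little difference in spleen were led by Rnf187, Prkaca, Ctbp1 and Mir6236. Rnf187, a ubiquitin ligase, was at 155 and 223 CPM in WT spleen, 149 and 151 CPM in KO spleen, 33.3 and 25.5 CPM in WT tumor and 195 and 226 CPM in KO tumor. WT tumor was low, and the KO tumor level was near that of spleen. Ctbp1, a corepressor, was at 98.4 and 87.1 CPM in WT spleen, 98.1 and 91.2 CPM in KO spleen, 25.01 and 18.6 CPM in WT tumor and 136 and 148 CPM in KO tumor, the same order. Reads assigned to Mir6236, annotated as a microRNA of 123 bases, were at 23.2 and 30.5 CPM in WT spleen, 29.2 and 21.04 CPM in KO spleen, 2.52 and 2.73 CPM in WT tumor and 20.1 and 24.8 CPM in KO tumor. In each of these genes WT tumor was the lowest group by a wide margin. Tumor differences were 2.84 (SE 0.34) for Rnf187, 2.70 (SE 0.32) for Ctbp1 and 3.10 (SE 0.39) for Mir6236, and interactions were 3.17, 2.67 and 3.19. Their tumor calls were made in 3 of 8 fits with 1 library left out and were lost without either KO spleen library, KO tumor replicate 1 or either WT tumor library.

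What many of these genes share is a stretch of high G and C content, a feature the choice of genes did not use. The richest 200 bases of the longest annotated transcript exceeded 75% G and C in 15.5% of the tested genes that had a value. Among genes higher in KO tumor with little in spleen the share was 64.1% (379 of 591), and among those lower it was 7.43%. It was 28.04% of opposite genes with KO higher in tumor, 16.7% of those with KO lower, 63.1% of DESeq2's interaction calls above 0 and 10.6% of those below. For spleen with little in tumor it was 22.7% of the higher genes and 12.3% of the lower. The median interaction was 1.06 for genes with a richest stretch of 80 to 85% and 1.02 at 85% or more, against 0.07 at 75 to 80% and -0.02 at 60 to 65%. Counts on GC-rich genes made up 15.01% and 15.1% of KO spleen libraries, 14.97% and 11.8% of WT spleen, 15.3% and 14.8% of KO tumor and 12.8% and 12.4% of WT tumor, so both WT tumor libraries and WT spleen replicate 2 were low. The part of base composition in the results was not tested as a cause.

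An offset for each library, fitted to the GC content of the richest stretch, was added after seeing the data. With it, edgeR's test passed 7 genes in tumor, all 7 among the 135. They were Rln3, Ncmap, Izumo1r, Igsf23, Ccr8, Ikzf4 and Mir6236, listed after their values were seen, so the other tumor calls did not hold with the offset, those of genes without a GC-rich stretch included. The tumor difference of Dusp2 went from 3.56 to 2.94 and that of Prkaca from 3.03 to 2.20 with it, while that of Ctla4 went from -2.84 to -2.73 and that of Gpr83 from -3.67 to -3.56, and none of these passed (adjusted p = 0.06048, 0.06032, 0.06055 and 0.0597 in edgeR's test with Benjamini-Hochberg adjustment). With the offset, 1267 genes had an interaction with an unadjusted p under 0.05, 754 above 0 and 513 below. The interaction was 4.19 for Dusp2 and 4.03 for Pde3b with the offset, 2.76 for Rnf187 and 2.31 for Prkaca, each smaller than without it. It was -3.61 for Izumo1r, -2.92 for Ikzf4 and -3.44 for Itgae. Of the 61 named genes, 15 had a stretch over 75%, of which Hif1a and Prss12 had an interaction below 0 and the others, such as Dusp2, Pde3b and Rnf187, one above 0.

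The stretches of Dusp2 and Izumo1r are shown because these genes, of opposite interaction, differ in this feature. The one in Dusp2 spans bases 142 to 341 of its transcript, within the coding sequence at 80 to 1033, and is 80.5% G and C. The one in Izumo1r spans bases 440 to 639, within the coding sequence at 224 to 955, and is 62.5% G and C. Both are on the transcript strand of GENCODE M21, and capitals mark runs of at least 6 G or C bases.
Dusp2: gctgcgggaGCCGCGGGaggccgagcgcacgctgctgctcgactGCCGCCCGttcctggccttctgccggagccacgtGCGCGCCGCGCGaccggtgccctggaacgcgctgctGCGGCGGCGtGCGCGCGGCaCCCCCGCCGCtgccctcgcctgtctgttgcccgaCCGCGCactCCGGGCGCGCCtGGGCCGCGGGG
Izumo1r: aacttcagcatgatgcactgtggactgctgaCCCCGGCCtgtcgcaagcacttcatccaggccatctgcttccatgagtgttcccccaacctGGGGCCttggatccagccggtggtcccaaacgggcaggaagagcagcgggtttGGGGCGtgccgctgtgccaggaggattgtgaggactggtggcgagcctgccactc
The Dusp2 stretch holds many such runs and the Izumo1r stretch few.

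**Figure D4:**
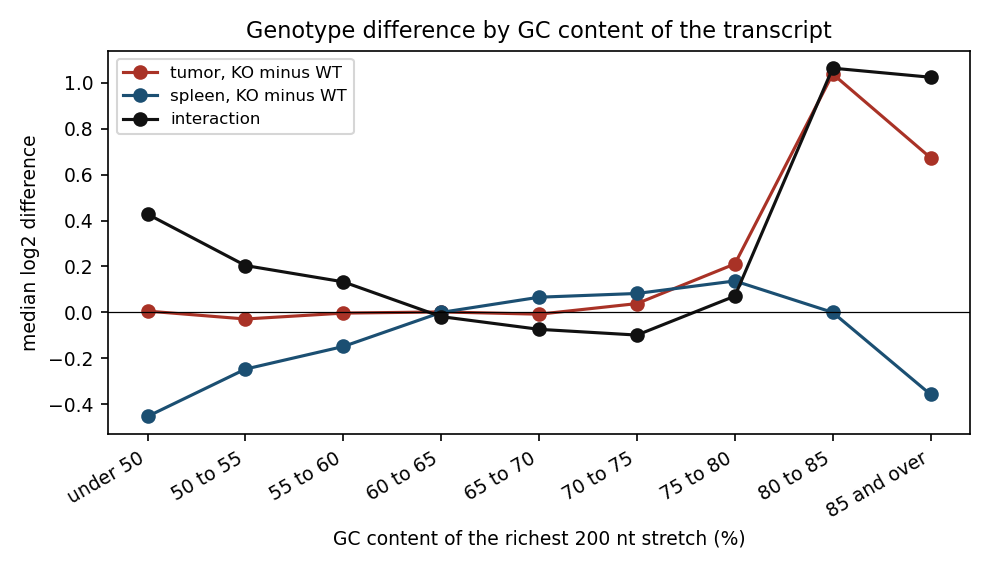
Median log2 difference between KO and WT in tumor and in spleen, and median interaction, of genes grouped by the GC percent of their richest 200 bases. Points are medians in log2 per bin of GC percent, and the interaction is 0.43 under 50%, near 0 from 60 to 80% and near 1 above it, where the tumor median is above 0 too.

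Other genes differed mainly in spleen. Ermn, a cytoskeletal protein known from oligodendrocytes, lies at chr2:58045113-58052864, where Galnt5 overlaps it. It was at 0.299 and 0.535 CPM in WT spleen, 17.9 and 14.6 CPM in KO spleen, 10.2 and 5.47 CPM in WT tumor and 5.08 and 2.88 CPM in KO tumor. WT spleen was under 1 CPM and KO spleen the highest group, while in tumor KO was below WT. Ermn had the most negative interaction of the named genes, -6.25 (SE 0.81, 95% interval -8.09 to -4.41), made of 5.28 in spleen and -0.97 in tumor. With each library left out, the interaction ran from -6.73 to -5.70 and the tumor difference from -1.44 to -0.46.

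Hlf, Aqp3, Prss12 and Dkk3 were higher in KO spleen with little difference in tumor. Hlf, a PAR bZIP transcription factor, was at 1.98 and 4.53 CPM in WT spleen, 13.9 and 15.9 CPM in KO spleen, 3.02 and 3.68 CPM in WT tumor and 2.06 and 2.69 CPM in KO tumor. KO spleen was above 13 CPM and all other libraries were under 5 CPM, for an interaction of -2.69 (SE 0.73). Aqp3, a channel for water and glycerol, was at 19.5 and 21.3 CPM in WT spleen, 82.4 and 67.4 CPM in KO spleen, 3.34 and 6.99 CPM in WT tumor and 4.73 and 4.38 CPM in KO tumor. Its splenic groups were far apart and its tumor groups overlapped, with an interaction of -2.06 (SE 0.57). Prss12, a secreted serine protease, was at 3.44 and 1.71 CPM and 8.27 and 15.1 CPM in WT and KO spleen and between 2.73 and 3.44 CPM in tumor. Dkk3, a secreted protein of the Dickkopf family, was at 1.74 and 0.571 CPM and 6.25 and 11.6 CPM in WT and KO spleen, and its tumor values of 9.92 and 9.18 CPM in WT and 12.9 and 3.78 CPM in KO overlapped. None of these passed in spleen, where edgeR's test passed 0 genes in all, DESeq2's Wald test passed 45, and edgeR's test passed 1 without KO tumor replicate 1 and 1 without KO tumor replicate 2.

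Higher levels in KO spleen were also seen in the type 17 list of 14 genes, of which 13 were tested. In 10 of the 13, both KO spleen libraries exceeded both WT spleen libraries, and 5 did so in tumor, where 1 was lower, against 15.9% of all genes higher in spleen and 17.9% in tumor. The median splenic difference was 2.43 and the tumor one 0.77, for a median interaction of -1.94 with 0 above 0 and 6 below (5.08% and 2.75% of all genes) at an unadjusted p under 0.05 in edgeR's test. Il23r, a subunit of the IL-23 receptor, was at 0.838 and 0.785 CPM in WT spleen, 57.6 and 34.4 CPM in KO spleen, 0.467 and 1.32 CPM in WT tumor and 13.02 and 4.75 CPM in KO tumor. KO was higher in both tissues without overlap, more so in spleen, with an interaction of -2.51 (SE 0.90, -3.42 to -1.59 with each library left out). Il17re, an IL-17 receptor chain, was at 27.6 and 19.9 CPM in KO spleen and 1.14 and 1.11 CPM in WT spleen, with 1.97 and 0.935 CPM and 0.395 and 0.675 CPM in KO and WT tumor. The cytokine Il17a stayed under 1 CPM in every library. Rora, a nuclear receptor, was lower in KO tumor and higher in KO spleen, by under 1 there, at 134 and 108 CPM in WT spleen, 192 and 194 CPM in KO spleen, 287 and 378 CPM in WT tumor and 139 and 137 CPM in KO tumor, an interaction of -1.94 (SE 0.44). With each library left out, the median of the list lay between -2.997 and -1.55.

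Follicular genes were also higher in KO spleen, 12 of 16 without overlap, while 6 were lower and 1 higher in KO tumor. Over all genes 15.9% were higher in spleen without overlap, and 19% lower and 17.9% higher in tumor. The median interaction of the list was -1.26, between -1.72 and -0.64 with each library left out, and 7 were below 0 and 0 above (2.75% and 5.08% of all genes) at an unadjusted p under 0.05 in edgeR's test. Il1r2, a decoy receptor for IL-1, was at 167 and 111 CPM in WT spleen, 262 and 244 CPM in KO spleen, 290.2 and 437 CPM in WT tumor and 126 and 96.4 CPM in KO tumor, with no overlap in either tissue and in opposite directions. Btla, an inhibitory receptor, had the same order, at 133 and 52.3 CPM in WT spleen, 181 and 147 CPM in KO spleen, 51.3 and 66.5 CPM in WT tumor and 29.2 and 30.7 CPM in KO tumor. Bcl6, the follicular lineage factor that Blimp1 represses, was at 38.7 and 11.3 CPM in WT spleen, 53.7 and 50.1 CPM in KO spleen, 19.5 and 21.9 CPM in WT tumor and 43.8 and 16.8 CPM in KO tumor. The splenic groups did not overlap and the tumor groups did. Its interaction of -0.50 (SE 0.85) became -1.65 without WT spleen replicate 1, 0.12 without WT spleen replicate 2 and 0.02 without KO tumor replicate 2, so its sign was not fixed.

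The named genes lower in KO spleen with little in tumor were at low levels there. Syngr1, a synaptic vesicle protein whose gene overlaps Rpl3, was at 0.449 and 0.785 CPM in WT spleen, 0.0644 and 0.203 CPM in KO spleen, 30.5 and 18.5 CPM in WT tumor and 50.1 and 16.2 CPM in KO tumor. All splenic values were under 1 CPM. Adm, which encodes adrenomedullin, was at 0.0898 and 0.107 CPM in WT spleen and had no count in KO spleen, both at or under the floor, so no fold is given, and its tumor values, 9.34 and 4.66 CPM for WT and 13.4 and 3.67 CPM for KO, overlapped. Tyrp1, a melanocyte enzyme, was at 0.389 and 0.0357 CPM in WT spleen and had no count in KO spleen, while tumor held 956 and 569 CPM in WT and 1427 and 349.9 CPM in KO.

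Gzmb, a granzyme that effector Treg cells use, showed a difference in spleen that was not matched in tumor. It was at 67.6 and 52.95 CPM in WT spleen, 1.203 and 3.22 CPM in KO spleen, 1986 and 1115 CPM in WT tumor and 456 and 4289.7 CPM in KO tumor. KO spleen was far below WT spleen, while the 2 KO tumor libraries lay on either side of WT tumor, with the higher value in the library rich in Cd8a. The interaction of 5.38 (SE 1.31) was 3.01 without KO tumor replicate 2. Gzma, by contrast, was low in spleen, at 1.11 and 2.25 CPM in WT and 0.644 and 1.496 CPM in KO, and stood at 15.5 and 2.84 CPM in WT tumor and 119 and 336 CPM in KO tumor, for an interaction of 5.28 (SE 1.22). Reads of granzyme and Klr genes with near-identical copies are uncertain.

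Of 27 cytotoxicity genes, 26 were tested, and 11 were above 0 and 0 below (5.08% and 2.75% of all genes) at an unadjusted p under 0.05 in edgeR's test. The median interaction was 2.94, or 3.26 with the 3 genes that had a group at 0 set to the floor, and it ran from 1.64 to 4.06 with each library left out. In tumor 17 of the 26 were higher in both KO libraries and 2 lower. In spleen 5 were higher and 8 lower. Over all genes 17.9% were higher and 19% lower in tumor, and 15.9% higher and 15.5% lower in spleen. Cd8a, the CD8 alpha chain, which the gate did not select, was at 5.21 and 5.96 CPM in WT spleen, 2.96 and 2.33 CPM in KO spleen, 71.8 and 9.69 CPM in WT tumor and 217 and 1214 CPM in KO tumor. It was opposite, with an interaction of 5.21 (SE 1.38) that was 3.49 without KO tumor replicate 2. Lamp1, a lysosomal membrane protein that reaches the surface when granules are released, was at 172 and 229.6 CPM in WT spleen, 217 and 242 CPM in KO spleen, 58.7 and 24.6 CPM in WT tumor and 1089 and 266 CPM in KO tumor. The WT tumor values were below every other library, and the interaction of 3.83 (SE 0.93) was 2.47 without KO tumor replicate 1. The part of CD8 T cell, NK cell and macrophage RNA, whose sums are given above, in this list was not tested.

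Klrk1, which encodes the activating receptor NKG2D, was at 1.35 and 4.67 CPM in WT spleen, 2.32 and 3.397 CPM in KO spleen, 26.8 and 4.08 CPM in WT tumor and 156 and 423 CPM in KO tumor. The splenic groups overlapped and the tumor groups did not, for an interaction of 4.30 (SE 1.28). Klrc2, an NKG2 family receptor, was under 0.4 CPM in spleen and at 1.22 and 0.641 CPM in WT tumor and 6.29 and 18.7 CPM in KO tumor. Crtam, an adhesion receptor of cytotoxic T cells, was higher in KO in both tissues, at 3.77 and 2.25 CPM in WT spleen, 9.69 and 5.07 CPM in KO spleen, 5.75 and 0.945 CPM in WT tumor and 14.6 and 52.1 CPM in KO tumor. Ifng overlapped in tumor, at 59.4 and 47.8 CPM in WT and 51.5 and 368 CPM in KO, and its interaction of 2.54 (SE 1.12) was 0.53 without KO tumor replicate 2. In each of these genes KO tumor replicate 2 held the highest value.

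Of 26 effector and memory transcription factors, 6 were above 0 and 4 below (5.08% and 2.75% of all genes) at an unadjusted p under 0.05 in edgeR's test, and the median interaction was -0.39, between -0.72 and 0.12 with each library left out. Without overlap, 9 were higher and 8 lower in KO tumor (17.9% and 19% of all genes), and 6 higher and 2 lower in KO spleen (15.9% and 15.5% of all genes). A GC-rich stretch was held by 9 of the 26, Eomes and Bach2 included, against 15.5% of tested genes with a value. Eomes, a T-box factor of cytotoxic and memory cells, was at 0.389 and 1.36 CPM in WT spleen, 0.988 and 0.3296 CPM in KO spleen, 2.95 and 1.22 CPM in WT tumor and 18.4 and 60.9 CPM in KO tumor. Splenic values were near or under 1 CPM, and KO tumor was the highest group. Bach2, a repressor that holds back effector differentiation, was higher in KO tumor and lower in KO spleen, by under 1 there, at 17.6 and 18.9 CPM in WT spleen, 12.3 and 9.43 CPM in KO spleen, 1.01 and 1.99 CPM in WT tumor and 8.41 and 6.21 CPM in KO tumor, an interaction of 3.03 (SE 0.65). The tissue difference was thus smaller in KO than in WT. Gata3, a factor of type 2 and tissue Treg cells, was lower in KO tumor, at 35.9 and 69.1 CPM against 213 and 477 CPM, and overlapped in spleen at 224 and 218 CPM and 263 and 214 CPM for KO and WT.

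The list of 18 quiescence and lymphoid homing genes had a median interaction of 1.29, between 0.79 and 1.34 with each library left out, with 8 above 0 and 2 below (5.08% and 2.75% of all genes) at an unadjusted p under 0.05 in edgeR's test. Without overlap, 8 were higher and 1 lower in KO tumor (17.9% and 19% of all genes), and 5 higher and 5 lower in KO spleen (15.9% and 15.5% of all genes). Tcf7, which encodes TCF1, was at 266 and 222 CPM in WT spleen, 371 and 307 CPM in KO spleen, 9.38 and 19.7 CPM in WT tumor and 55.1 and 66.3 CPM in KO tumor. KO was higher in both tissues, more so in tumor, and KO tumor did not reach spleen levels. Klf2, which drives S1pr1, was at 89.4 and 28.2 CPM in KO tumor and 4.31 and 8.44 CPM in WT tumor, and overlapped in spleen at 155 and 196 CPM and 103 and 278 CPM for KO and WT. Il7r, the IL-7 receptor, was of the other sign, at 225 and 337 CPM in WT spleen, 512 and 844 CPM in KO spleen, 136 and 502 CPM in WT tumor and 191 and 83.4 CPM in KO tumor, with overlap in tumor and none in spleen.

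Cell cycle genes, 28 in number, had a median interaction of 0.20, with 1 above 0 and 0 below (5.08% and 2.75% of all genes) at an unadjusted p under 0.05 in edgeR's test and a range of -0.65 to 1.26 with each library left out. That gene was E2f1, a factor of S phase entry, at 4.55 and 6.601 CPM in WT spleen, 7.67 and 5.27 CPM in KO spleen, 11.5 and 4.93 CPM in WT tumor and 35.8 and 39.7 CPM in KO tumor, and its transcript holds a GC-rich stretch. Of the list, without overlap, 2 were higher and 0 lower in KO tumor (17.9% and 19% of all genes), and 0 higher and 1 lower in KO spleen (15.9% and 15.5% of all genes). The 26 interferon-stimulated genes had a median of 0.44, 2 above 0 and 0 below (5.08% and 2.75% of all genes) at such a p, and a range of -0.22 to 0.74 with each library left out, so its sign was not fixed. Without overlap, 0 were higher and 4 lower in KO tumor (17.9% and 19% of all genes), and 0 higher and 13 lower in KO spleen (15.9% and 15.5% of all genes). Oas2, an antiviral enzyme, was at 1.83 and 1.499 CPM in WT spleen, 0.193 and 0.254 CPM in KO spleen, 5.64 and 5.06 CPM in WT tumor and 20.2 and 2.69 CPM in KO tumor, and without KO tumor replicate 1 its interaction of 3.98 (SE 1.19) was 1.88. Glycolysis and hypoxia genes, 20 in number, had a median of -0.39, 0 above 0 and 1 below (5.08% and 2.75% of all genes), and a range of -0.63 to -0.24. Without overlap, 0 were higher and 6 lower in KO tumor (17.9% and 19% of all genes), and 9 higher and 1 lower in KO spleen (15.9% and 15.5% of all genes). The gene with such a p was Hif1a, the hypoxia factor, at 765 and 172 CPM in WT spleen, 969.5 and 822 CPM in KO spleen, 1669.5 and 1868 CPM in WT tumor and 986 and 701 CPM in KO tumor. Its interaction of -2.003 (SE 0.85) ran from -3.45 without WT spleen replicate 1 to -1.30 without WT spleen replicate 2.

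Promoters were read for the motif GTGAAAG, which Blimp1 is known to bind, on either strand in the 300 bases from 250 before to 50 after the gene start given by RefSeq on GRCm38.p6. Of 27025 promoters 1166 held it (4.31%), as did 3 of the 45 named genes with a promoter in the table, of the 61 named. A match describes the letters and is no evidence of binding. The 3 promoters are shown because they belong to genes with unlike patterns: Rln3 lower in KO tumor, Selenon opposite and Klrk1 higher in KO tumor. Rln3 is on the minus strand at chr8:84044930-84045229, Selenon on the minus strand at chr4:134552117-134552416 and Klrk1 on the minus strand at chr6:129623815-129624114. Capitals mark the motif, which in Klrk1 appears in reverse complement.
Rln3: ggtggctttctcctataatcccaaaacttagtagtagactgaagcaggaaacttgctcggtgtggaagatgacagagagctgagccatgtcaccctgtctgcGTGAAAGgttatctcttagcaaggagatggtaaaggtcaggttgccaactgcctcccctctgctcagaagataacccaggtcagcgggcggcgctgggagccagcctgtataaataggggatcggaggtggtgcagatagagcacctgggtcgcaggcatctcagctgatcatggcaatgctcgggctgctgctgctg
Selenon: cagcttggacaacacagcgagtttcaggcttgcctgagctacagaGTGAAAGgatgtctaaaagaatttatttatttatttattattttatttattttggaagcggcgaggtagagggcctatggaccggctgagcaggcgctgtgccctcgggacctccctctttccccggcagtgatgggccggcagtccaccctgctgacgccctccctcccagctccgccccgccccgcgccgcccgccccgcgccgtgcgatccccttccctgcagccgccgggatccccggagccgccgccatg
Klrk1: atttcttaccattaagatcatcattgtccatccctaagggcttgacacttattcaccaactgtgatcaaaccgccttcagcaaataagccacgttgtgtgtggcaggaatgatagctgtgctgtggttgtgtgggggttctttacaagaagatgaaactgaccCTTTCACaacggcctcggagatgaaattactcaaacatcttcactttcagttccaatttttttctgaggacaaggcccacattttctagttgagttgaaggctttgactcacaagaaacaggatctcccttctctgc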

How the data were processed

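For 8 libraries, the authors deposited raw counts of reads in genes, made per the submitters' notes with Trimmomatic 0.36, STAR 2.5.2b on GRCm38 and featureCounts of Subread 1.5.2. The normalized table was not used. R 4.3.3 with edgeR 4.0.16 (TMM, filterByExpr, quasi-likelihood test), DESeq2 1.42.0 and limma 3.58.1 fitted the 4 groups together. Thresholds were a Benjamini-Hochberg adjusted p of 0.05 over all genes tested and an absolute log2 over 1. The SE is the absolute log2 divided by the square root of F. The fit was tested on simulated data. Replicates exceeded counting noise, with a chi-square over its degrees of freedom from 37.6 to 349.6, and no library was counted as a second deposit of another. GC values came from the longest GENCODE M21 transcript, with a match for 96.9% of genes.

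Members and lists were chosen with earlier results of these data known. Named genes are the 6 in each direction with the smallest interaction p and the 4 in each class and direction. To these were added 1 of each program list in each direction with an unadjusted p under 0.05, and a fixed set. That set came from the study's subject, except Dusp2, Pde3b and Il23r, which the study's text does not name. Predicted genes, pseudogenes, receptor segments and genes with a mean under 1 CPM were passed over. Other members of a list are named in its account. Some genes that meet these rules are not reported here, and the list values include them.

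Alternatives were DESeq2's test and size factors, no filter on low counts, a mean of at least 50 counts, robust empirical Bayes, thinning to the smallest library, a replicate block, the 4 libraries of a tissue alone, other class thresholds and each library left out. An offset for GC content and a floor of 1 CPM in both tissues for the classes were chosen after seeing the data.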

Additional observations from a re-analysis of the deposited data

Results flagged for a closer look

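In 19 of the 61 genes that the rules in the processing summary select, every KO tumor library lay on one side of every WT tumor library while every KO spleen library lay on the opposite side of every WT spleen library. Over all 17870 genes tested, 956 (5.35%) had such an order, which random order of 2 KO and 2 WT libraries also gives. The rules favor it, since they select from the opposite class and by a small interaction p. The interaction passed edgeR's adjusted test for none of the 19 with the filter on low counts, and for most of them without it. The interaction was above 0, with KO higher in tumor and lower in spleen, at 4.72 for Dusp2, 4.77 for Pde3b, 2.89 for Dusp5, 3.17 for Rnf187, 3.83 for Tmem158, 3.65 for Selenon, 3.03 for Bach2 and 5.21 for Cd8a. It was below 0, with KO lower in tumor and higher in spleen, at -6.25 for Ermn, -4.44 for Itga7, -3.53 for Itgae, -3.43 for Cyp2s1, -3.61 for Ccr4, -2.42 for Icos and -1.94 for Rora. The same held at -3.19 for Atp8a2, -2.69 for Hlf, -2.34 for Prss12 and -2 for Hif1a. Rnf187, Cyp2s1 and Icos differed in spleen by less than 0.5, and Hlf and Prss12 in tumor by less than 0.5, so the opposite movement is small in 1 tissue.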

How the results depend on the processing

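The interaction test passed 0 genes in edgeR's quasi-likelihood test with 1399 at an unadjusted p under 0.05, and 0 with each library left out in turn. It passed 309 in DESeq2's Wald test and 752 without the filter on low counts, and 1395 had an unadjusted p under 0.05 with an absolute log2 over 1. With the replicate number as a block it passed 0.

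Genes passing in tumor, 135, numbered 911 in DESeq2's test, 1452 without the filter and 0 with the 4 tumor libraries alone. With each library left out they numbered between 2 and 151. With the GC offset, chosen after seeing the data, they numbered 7. Genes passing in spleen, 0 in edgeR's test, numbered 45 in DESeq2's test, 172 without the filter, and between 0 and 1 with each library left out.

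With the replicate number as a block, the tumor count was 73. The labels do not say whether replicate numbers pair the groups. Over genes, the correlation of replicate differences was 0.15 between WT and KO spleen and 0.23 between WT and KO tumor. It was -0.02 between WT spleen and WT tumor and -0.22 between KO spleen and KO tumor. Between WT spleen and KO tumor it was -0.03, and between KO spleen and WT tumor -0.02. Each group gives only a single replicate difference, so these values cannot show or exclude a pairing.

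The opposite class of 163 genes ranged from 230 to 759 with each library left out. It held 56 at a mean of at least 50 counts, 41 with a mean of at least 1 CPM in both tissues (chosen after seeing the data), 448 at a difference over 0.5 and 34 over 2. Tumor with little in spleen, 1089, ranged from 701 to 1910 and held 983 with that level, 603 with the other tissue under 0.25 and 1577 with it under 1. Spleen with little in tumor, 212, ranged from 153 to 2653 and held 168 with that level, 98 under 0.25 and 360 under 1.

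Of the named genes, the interaction of Bcl6 ranged from -1.65 to 0.12 and that of Il10 from -0.29 to 2.38 with each library left out, with 0.02 for Bcl6 without KO tumor replicate 2. The other 59 kept their sign. The cause of these shifts was not tested, apart from a group of 1 library, whose spread is assumed to be that of the other groups. In simulated libraries with 200 genes changed by a log2 of 2 in KO tumor, edgeR's interaction test recovered 15 and passed 1 other gene, and DESeq2's recovered 38 and passed 16 others. At a log2 of 4 they recovered 190 and 194, with 7 and 40 others. In these data, interactions such as 4.72 for Dusp2 and -6.25 for Ermn did not pass in edgeR with the filter on low counts. The simulated recovery may thus not hold for these libraries, and the reason was not tested. The 0 of edgeR does not exclude changes of either size. In the simulated libraries DESeq2's calls held a larger share of unchanged genes, and whether that holds in these data was not tested.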
